A study of Mus musculus with 12 samples.

Results

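Aquaporins are membrane channels for water, and 7 of their genes (Aqp1, Aqp3, Aqp4, Aqp5, Aqp7, Aqp8 and Aqp11) were followed in mouse colonic epithelium. They were chosen by symbol, as the rows of these names among 23420 gene symbols in the count files. The groups were confluent monolayers collected on day 3, on day 4 and on day 5 and, as their comparison, colonic crypts, with 3 libraries in each of the 4 groups and 12 libraries in all. All groups were of wild-type (WT) mouse colon with no further genotype or agent named. Per the labels, the crypts came from a WT mouse aged 6 to 10 weeks. For the monolayers, cells grown from such crypts on collagen were replated onto scaffolds whose cross-linking was graded, and each monolayer was lysed whole. The labels give the electrical resistance across the monolayer, with an error of unnamed type, as 526 ± 56 ohm cm2 at day 3, 623 ± 15 ohm cm2 at day 4 and 407 ± 53 ohm cm2 at day 5. The source of a group's 3 libraries, 1 mouse or culture or several, was not given in the sources used here. Each p-value therefore covers only the spread among these libraries, which may be technical.

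Water crosses the colonic epithelium along the salt that its cells absorb or secrete, and aquaporins on the apical (luminal) and the basolateral (tissue-facing) membranes offer it a path through the cell. The orthodox aquaporins Aqp1, Aqp4, Aqp5 and Aqp8 pass mainly water, and Aqp8 also passes ammonia and hydrogen peroxide. The aquaglyceroporins Aqp3 and Aqp7 pass glycerol as well, and Aqp11 is an unorthodox aquaporin of intracellular membranes. In the colon Aqp8 is known from the absorptive cells near the surface, Aqp3 and Aqp4 from basolateral membranes, and Aqp1 chiefly from small vessels.

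Gene counts summed to between 5456913 and 14290393 per monolayer library and between 4518314 and 9939045 per crypt library. Levels are counts scaled to library size (CPM), with libraries adjusted by edgeR's TMM factors, and changes are log2 fold changes ± SE from edgeR's quasi-likelihood test. A gene was called at a Benjamini-Hochberg adjusted p under 0.05 over the 12863 genes tested. Each day was set against the same 3 crypt libraries, so the comparisons with crypts are not independent of one another. The labelled tissue was checked on 8 epithelial markers, which all passed the filter and summed to between 10949.9 and 14762 CPM in monolayers and between 9249 and 10548 CPM in crypts. Goblet cell markers summed to between 19.1 and 84.2 CPM in monolayers and between 33436 and 50195 CPM in crypts, and enteroendocrine and tuft cell markers to between 27.0 and 52.5 CPM in monolayers and between 518 and 1194 CPM in crypts. The 8 leukocyte markers summed to between 23.6 and 51.7 CPM in monolayers and between 15.2 and 32.4 CPM in crypts, and of 5 tested 2 were higher and 3 lower in monolayers. Ptprc, the pan-leukocyte gene, averaged 0.232 ± 0.235 CPM in monolayers (SD, n = 9) and 16.9 ± 6.47 CPM in crypts (SD, n = 3), whereas Cd68, of phagocyte lysosomes, averaged 31.3 ± 9.38 CPM in monolayers and 1.35 ± 0.742 CPM in crypts.

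The stretches around the start of 3 of the genes are shown because these genes differ widely in how far their levels fell in monolayers. They are given 5′ to 3′ on the gene's strand as RefSeq's table of mouse promoters has them for GRCm38.p6, with 250 bases before the start and 50 after it, and 6 of the 7 members matched that table. Capitals mark a motif that a search of both strands found. The stretch of Aqp8 lies at chr7:123462044-123462343 on the plus strand, that of Aqp1 at chr6:55336049-55336348 on the plus strand, and that of Aqp11 at chr7:97738198-97738497 on the minus strand.
Aqp8: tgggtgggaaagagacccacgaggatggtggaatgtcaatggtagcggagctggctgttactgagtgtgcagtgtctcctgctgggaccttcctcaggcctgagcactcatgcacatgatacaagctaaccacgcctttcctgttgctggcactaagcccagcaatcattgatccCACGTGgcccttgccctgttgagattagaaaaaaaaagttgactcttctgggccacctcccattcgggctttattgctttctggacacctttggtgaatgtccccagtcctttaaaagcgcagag
Aqp1: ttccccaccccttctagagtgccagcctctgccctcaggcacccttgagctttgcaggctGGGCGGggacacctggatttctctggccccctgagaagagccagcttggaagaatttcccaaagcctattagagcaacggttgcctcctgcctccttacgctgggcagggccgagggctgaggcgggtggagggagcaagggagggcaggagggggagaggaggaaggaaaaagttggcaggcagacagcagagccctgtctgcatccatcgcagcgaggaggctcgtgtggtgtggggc
Aqp11: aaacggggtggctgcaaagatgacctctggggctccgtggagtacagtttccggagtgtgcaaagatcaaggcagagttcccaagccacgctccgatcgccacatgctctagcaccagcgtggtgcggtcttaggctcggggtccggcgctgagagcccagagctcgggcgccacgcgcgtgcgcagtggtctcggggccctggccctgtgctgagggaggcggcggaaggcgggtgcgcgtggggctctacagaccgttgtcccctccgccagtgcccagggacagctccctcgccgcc

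The motifs searched were the TATA box TATAAA, the CCAAT box CCAAT, the GC box GGGCGG, the E-box CACGTG and the Cdx-type site TTTATG. Aqp8 held the E-box at bases 176 to 181 of its stretch, a motif that 7.15% of the 32851 promoters of the table hold. Aqp1 held the GC box at bases 61 to 66, which 35.66% of the promoters hold. Neither match overlapped another motif. The stretch of Aqp11 held none of the 5 motifs, of which TATAAA occurs in 13.62%, CCAAT in 37.41% and TTTATG in 11.85% of the promoters. The promoter of Aqp11 was the richest of the 3 in G and C at 68.0%, against 62.7% in Aqp1 and 52.0% in Aqp8. Its ratio of observed to expected CpG was 0.782, and 77.6% of all promoters had a lower one. The CpG ratio was 0.296 in Aqp8 and 0.278 in Aqp1, with 41.4% and 39.2% of promoters lower. These matches are descriptions of letters.

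Aqp8, the channel of the absorptive surface, was nearly lost from monolayers. It had 0.1996, 0.143 and 0.151 CPM in the 3 libraries of day 3, 1.81, 0.747 and 1.09 CPM at day 4, and 0.604, 0.269 and 1.39 CPM at day 5, against 250.4, 223.0 and 194.8 CPM in crypts. Every monolayer library lay below every crypt library, and the 9 monolayer libraries held 58 reads together against 5126 in the 3 crypt libraries. The change was -8.73 ± 0.18 in monolayers against crypts (edgeR, Benjamini-Hochberg adjusted p = 1.63e-17). The pooled CPM was 333 times lower in monolayers, with an exact 95% interval of 257 to 439 that covers counting error only. In whole lysates, fewer cells of a type and less RNA per cell cannot be told apart.

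The near-loss of Aqp8 was present at each day. It was -10.32 ± 0.31 at day 3 against crypts (edgeR adjusted p = 5.97e-15), -7.48 ± 0.25 at day 4 (edgeR adjusted p = 2.08e-14) and -8.39 ± 0.28 at day 5 (edgeR adjusted p = 2.94e-14). Day 3 rests on 2 reads in each library, and its pooled CPM was 1336 times lower than that of crypts (exact 95% interval 613 to 3641). The pooled CPM was 174 times lower at day 4 (126 to 245) and 337 times lower at day 5 (201 to 617).

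Aqp4, a basolateral water channel best known from the endfeet of astrocytes, fell as well but stayed well expressed. It had 300.9, 290.4 and 298.2 CPM at day 3, 163.5, 232.8 and 243.5 CPM at day 4, and 35.5, 41.3 and 49.7 CPM at day 5, against 657.1, 671.4 and 966.3 CPM in crypts. The 4 groups did not overlap in any pair, and their order, from high to low, was crypts, day 3, day 4 and day 5. The change was -2.47 ± 0.11 in monolayers against crypts (edgeR adjusted p = 1.03e-12). By day it was -1.37 ± 0.15 at day 3 (edgeR adjusted p = 3.71e-07), -1.85 ± 0.16 at day 4 (edgeR adjusted p = 8.86e-09) and -4.18 ± 0.18 at day 5 (edgeR adjusted p = 5.96e-13), each against crypts. Pooled CPM, a measure apart from the fitted change, was 2.72 times lower at day 3, 3.85 times lower at day 4 and 19.1 times lower at day 5. The 8 glia and neuron markers, set beside Aqp4 since astrocytes express it, summed to between 2.77 and 6.72 CPM in monolayers and between 2.21 and 3.40 CPM in crypts, where S100b, Gfap and Sox10 were among those with no read.

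Aqp3, the other channel placed on basolateral membranes, was at or near 0 in every library. Its 4 reads were all in day 3 replicate 2, with none in the other 8 monolayer libraries and none in crypts. A count of 0 over the 3 crypt libraries allows up to 0.126 CPM, and the 9 monolayer libraries pooled held 0.0446 CPM. Aqp3 lies beside Aqp7, and the genes that flank this pair had reads in all 12 libraries: Nol6, next to Aqp3, had between 111 and 363, and Nfx1, next to Aqp7, between 466 and 1381. The annotation that decided which reads count for Aqp3 was not given in the sources used here. A low level and reads lost in the counting therefore cannot be told apart.

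**Figure D1:**
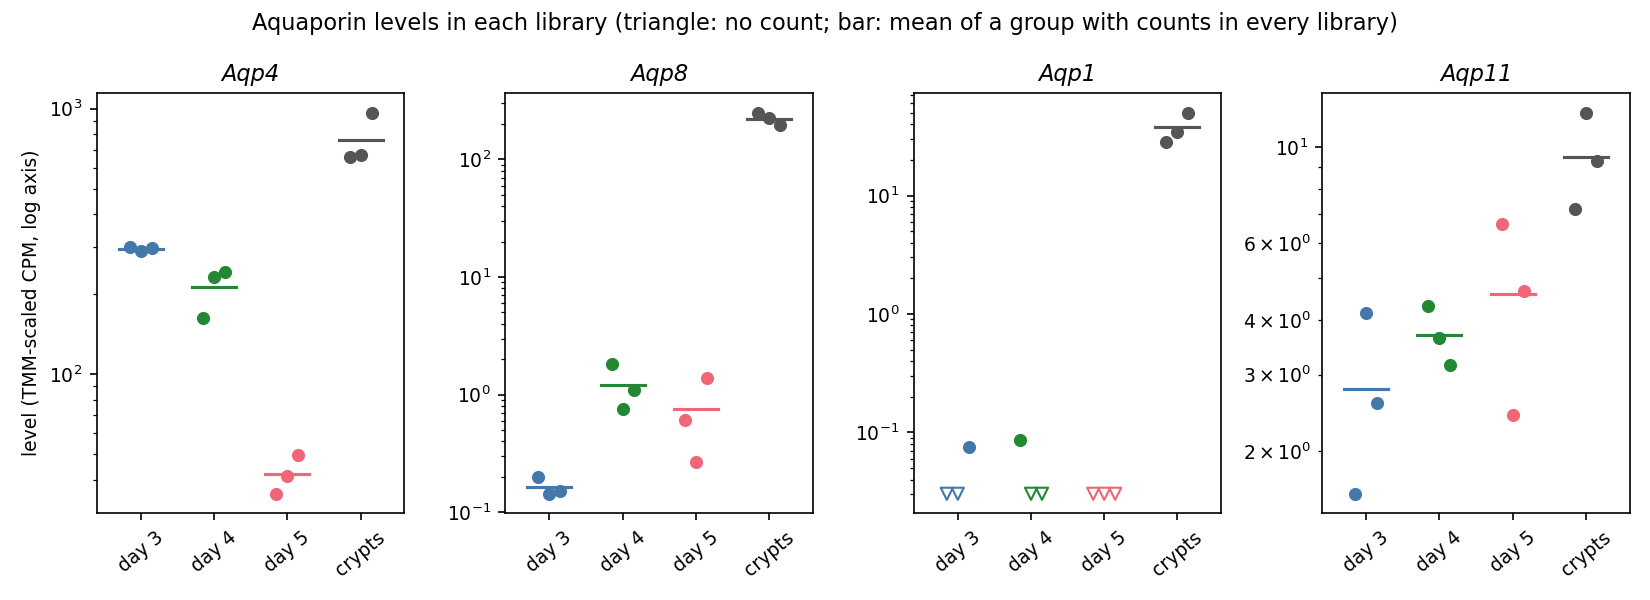
Level of Aqp4, Aqp8, Aqp1 and Aqp11 (TMM-scaled CPM, log axis) in each library of day 3, day 4, day 5 and crypts, with 1 point per library, a bar at the mean of groups with reads in every library, and an open triangle at an arbitrary height for a library with no read. Aqp8 lies between 0.143 and 1.81 CPM in monolayers against 194.8 to 250.4 CPM in crypts. Aqp1 passed the filter on low counts through crypts alone.

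Aqp1, the channel of red cells and capillary endothelium, was detected in crypts only apart from 2 reads. It had 0, 0 and 1 reads at day 3, 1, 0 and 0 reads at day 4 and no read at day 5, against 141, 263 and 557 reads in crypts. The crypt levels were 28.2, 34.3 and 50.2 CPM. Pooled CPM was 1812 times lower in monolayers than in crypts (exact 95% interval 500.2 to 14982). It was, at day 5, at least 295-fold lower, against a floor of 3 reads over the group. Aqp1 entered the test through the crypts alone, so that it had to differ, and its adjusted p is not given.

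Markers of vessels and blood were set beside Aqp1. The 10 endothelial markers summed to between 1.61 and 4.67 CPM in monolayers and between 4.42 and 9.25 CPM in crypts, and 4 of the 10, Cdh5, Emcn, Plvap and Cldn5, had no read in crypts. Pecam1, a gene of vessel walls, averaged 0.0475 ± 0.0929 CPM in monolayers (SD, n = 9) and 1.40 ± 0.216 CPM in crypts (SD, n = 3). The 6 erythroid markers in the files summed to between 0 and 0.467 CPM in monolayers and between 0.541 and 4.60 CPM in crypts, and 5 of the 6 had no read in monolayers. In crypts the globin gene Hbb-b2 and the heme synthesis gene Alas2 had reads in all 3 libraries, averaging 0.967 ± 1.08 and 1.26 ± 0.788 CPM (SD, n = 3), the globin gene Hbb-b1 in 1 library, and Hba-a1 and Hba-a2 in none. The crypt library with the highest Aqp1, replicate 3 at 50.2 CPM, had the lowest endothelial sum (4.42 CPM), the lowest erythroid sum (0.541 CPM) and the lowest sum of the 10 mesenchymal markers (8.20 CPM). Replicate 1 had sums of 8.20, 4.60 and 29.2 CPM beside 28.2 CPM of Aqp1, and replicate 2 had sums of 9.25, 2.47 and 75.0 CPM beside 34.3 CPM of Aqp1. Mesenchymal markers summed to between 0.798 and 5.04 CPM in monolayers. These are values of 3 crypt libraries, and which cells gave the Aqp1 reads of crypts was not tested.

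Aqp11, the intracellular channel whose loss in mice gives cystic kidneys, was lower by the smallest factor among the members tested over all days, though not at day 3. It had 1.60, 4.16 and 2.58 CPM at day 3, 4.30, 3.64 and 3.15 CPM at day 4, and 6.65, 2.42 and 4.68 CPM at day 5, against 7.20, 11.98 and 9.28 CPM in crypts. No monolayer library reached the lowest crypt library, although day 5 replicate 1 came close to it. The change was -1.40 ± 0.33 in monolayers against crypts (edgeR adjusted p = 0.00122). By day it was -1.76 ± 0.44 at day 3 (edgeR adjusted p = 0.00228), -1.36 ± 0.44 at day 4 (edgeR adjusted p = 0.0127) and -1.10 ± 0.44 at day 5 (edgeR adjusted p = 0.0421). The day 5 call was lost with only the libraries of day 5 and crypts in the fit (-1.09, edgeR adjusted p = 0.0691), and without any 1 of 7 libraries (day 3 replicate 3, day 4 replicates 1 and 2, day 5 replicates 2 and 3, crypts replicates 2 and 3), at adjusted p between 0.0504 and 0.182. The day 4 call was lost without crypts replicate 2 (-1.16, edgeR adjusted p = 0.0517).

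Aqp7, which lets glycerol out of fat cells, had 4 reads, all in day 4 replicate 1. Aqp5, the apical channel of salivary, lacrimal and airway glands, had 1 read in day 3 replicate 1 and 1 in day 4 replicate 2. Neither had a read at day 5 or in crypts, where a count of 0 over the group allows up to 0.137 and 0.126 CPM. Neither was detectable as different between groups at this depth. Adipocyte markers, among which Adipoq had no read in monolayers, summed to between 13.0 and 19.2 CPM in monolayers and between 8.83 and 15.4 CPM in crypts. The 2 adipocyte markers tested were both called higher in monolayers, beside 30.7% of all genes. Most of the sum was Cidec, at 13.9 ± 2.28 CPM in monolayers and 9.16 ± 0.518 CPM in crypts (0.60 ± 0.21, edgeR adjusted p = 0.0167). The 5 other aquaporin genes in the files were as sparse: Aqp2, Aqp6 and Mip had no read, Aqp9 had 7 reads in monolayers and 3 in crypts, and Aqp12 had none in monolayers and 2 in crypts.

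Of the 7 members, 4 passed the filter on low counts and 3 (Aqp3, Aqp5 and Aqp7) did not. Aqp4 and Aqp11 reached the 0.991 CPM that the filter asks for in all 12 libraries, Aqp8 in the 3 crypt, 2 day 4 and 1 day 5 libraries, and Aqp1 in the 3 crypt libraries alone. All 4 that passed were called lower in monolayers, but since crypts carried Aqp1 through the filter this count is not a result about the family. Among all genes tested 63.5% were called, 32.8% lower and 30.7% higher, in monolayers against crypts. The shares called were 56.3% at day 3, 57.1% at day 4 and 57.3% at day 5 against crypts. A call against crypts is therefore common, and it is the size that sets the members apart from one another. A more negative change than that of Aqp8 (-8.73) was found in 0.746% of the genes tested. For Aqp4 (-2.47) that share was 8.42% and for Aqp11 (-1.40) it was 14.7%.

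Levels of different aquaporins were compared per kilobase of exon (GENCODE M21 lengths of all exons joined, 6.233 kb for Aqp4, 1.581 kb for Aqp8, 2.627 kb for Aqp1 and 9.418 kb for Aqp11). In crypts Aqp8 stood at 141 ± 17.6 CPM per kb and Aqp4 at 123 ± 28 CPM per kb (SD, n = 3). Their libraries overlapped, and with the length of the longest transcript the means were 150 ± 18.7 and 151 ± 34.5 CPM per kb, so these neighbours in the order did not differ beyond their spread. Aqp1 followed at 14.3 ± 4.33 and Aqp11 at 1.01 ± 0.255 CPM per kb in crypts. In monolayers Aqp4 led at every day, with 47.6 ± 0.870 CPM per kb at day 3, 34.2 ± 6.97 at day 4 and 6.76 ± 1.15 at day 5. Aqp8 had 0.104 ± 0.0192, 0.768 ± 0.342 and 0.476 ± 0.363 CPM per kb at day 3, day 4 and day 5. Aqp11 had 0.295 ± 0.137, 0.393 ± 0.0617 and 0.487 ± 0.225 CPM per kb on the same days. At day 5 the spreads of Aqp8 and Aqp11 overlapped.

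Surface and basolateral channels were compared within each library by the ratio of Aqp8 to Aqp4 reads, which does not move with the scaling of the library. The log2 ratio was -10.6, -11.0 and -10.9 in the day 3 libraries, -6.50, -8.28 and -7.80 in those of day 4, and -5.87, -7.26 and -5.16 in those of day 5, against -1.39, -1.59 and -2.31 in crypts. Every monolayer library lay below every crypt library, and every day 3 library below those of day 4 and day 5, whereas day 4 and day 5 overlapped. The mean over monolayers was -8.15 ± 2.22 (SD, n = 9) and that over crypts -1.76 ± 0.483 (SD, n = 3), a difference of -6.39. Aqp8 thus made up 0.0555% of the reads of both genes at day 3, 0.620% at day 4 and 1.68% at day 5, against 23.1% in crypts. The day 3 and day 5 ratios rest on as few as 2 and 3 Aqp8 reads per library. The exact 95% interval of the Aqp8 share, for counting error only, was 0.00803 to 0.239% in day 3 replicate 1 and 0.347 to 4.82% in day 5 replicate 1. A ratio of Aqp8 to Aqp3 could not be formed, since Aqp3 had no read in crypts.

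**Figure D2:**
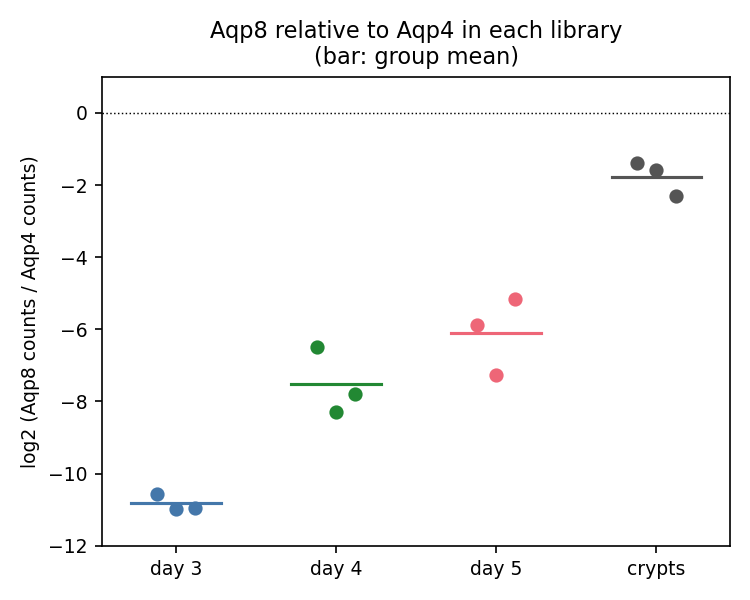
Log2 ratio of Aqp8 to Aqp4 reads (vertical axis) in each library of day 3, day 4, day 5 and crypts, with 1 point per library and a bar at the group mean. The means are -10.83 at day 3, -7.53 at day 4, -6.10 at day 5 and -1.76 in crypts, and no monolayer library reaches the crypt libraries.

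Summed over the 12 aquaporin genes in the files, the level was 189 ± 114 CPM in monolayers (SD, n = 9) and 1035 ± 161 CPM in crypts (SD, n = 3). It was 299.7 ± 4.02 CPM at day 3, 218 ± 42.1 CPM at day 4 and 47.5 ± 7.20 CPM at day 5. Aqp4 gave between 83.0 and 99.3% of all aquaporin reads in monolayer libraries and between 69.7 and 79.2% in crypt libraries. Aqp8 gave most of the rest in crypts, and Aqp11 gave most of it at day 5.

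Between the monolayer days Aqp4 fell toward day 5, and Aqp8 rose at day 4 against day 3 at a very low level. Of all genes tested 2.77% were called between day 4 and day 3, 20.4% between day 5 and day 3 and 7.56% between day 5 and day 4. Aqp4 fell by 2.81 ± 0.17 on the log2 scale at day 5 against day 3 (edgeR adjusted p = 4.3e-09) and by 2.34 ± 0.17 at day 5 against day 4 (edgeR adjusted p = 1.42e-07). A more negative change than that of Aqp4 was found in 1.54% of genes at day 5 against day 3 and 1.55% at day 5 against day 4. At day 4 against day 3 Aqp4 was not called (-0.48 ± 0.15, edgeR adjusted p = 0.117), although its 3 day 4 libraries all lay below those of day 3. It was called there by DESeq2 (-0.47, adjusted p = 0.0364), with no filter (edgeR adjusted p = 0.000112), with only the libraries of both days in the fit (edgeR adjusted p = 0.00324) and without crypts replicate 3 (edgeR adjusted p = 0.0421).

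Aqp8 was higher at day 4 than at day 3, by 2.84 ± 0.56 (edgeR adjusted p = 0.00903), on 38 reads at day 4 against 6 at day 3. Aqp8 reached the 0.991 CPM of the filter in 2 day 4 and 0 day 3 libraries, so other groups helped to carry it through. All 3 day 4 libraries lay above the day 3 libraries. The call was lost without day 4 replicate 1 (2.38, edgeR adjusted p = 0.106), day 3 replicate 2 (2.75, edgeR adjusted p = 0.0528) or day 3 replicate 3 (2.79, edgeR adjusted p = 0.0502). At day 5 against day 3 Aqp8 was not called by edgeR (1.92 ± 0.70, adjusted p = 0.0613), on 14 reads against 6, but was called by DESeq2 (2.01, adjusted p = 0.0287), with no filter (edgeR adjusted p = 0.0223) and without day 4 replicate 1 or day 5 replicate 2 (edgeR adjusted p = 0.0485 and 0.0161). Day 5 and day 4 were not told apart (-0.92 ± 0.48, edgeR adjusted p = 0.288). All of these levels stood below 1% of the crypt mean of 223 ± 27.8 CPM. Aqp11 differed between no pair of days, at 0.40 ± 0.44 for day 4 against day 3, 0.67 ± 0.45 for day 5 against day 3 and 0.26 ± 0.45 for day 5 against day 4 (edgeR adjusted p = 0.782, 0.333 and 0.797).

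Markers of the 2 ends of the crypt moved between the same days. Of 11 surface colonocyte markers tested 9 were higher and 0 lower at day 5 against day 3, with a median change of 2.08, whereas 9.9% of all genes were called higher and the median of all genes was -0.01. They summed to between 2637 and 2696 CPM at day 3, between 2632 and 3137 CPM at day 4 and between 4001 and 4793 CPM at day 5, against between 12033 and 16032 CPM in crypts. Slc37a2, a sugar phosphate carrier gene, averaged 0.191 ± 0.116 CPM at day 3, 2.11 ± 1.31 CPM at day 4 and 9.35 ± 1.28 CPM at day 5, against 145 ± 67.2 CPM in crypts. Guca2b, which encodes the gut peptide uroguanylin, averaged 0.427 ± 0.0660 CPM at day 3, 0.882 ± 0.286 CPM at day 4 and 2.30 ± 0.627 CPM at day 5, against 19.6 ± 5.55 CPM in crypts. Both rose at day 5 against day 3 (edgeR adjusted p = 2.93e-06 and 0.0014). Of 12 lower crypt markers 6 were lower and 2 higher at day 5 against day 3, with a median of -0.83, where 10.5% of all genes were called lower. Their sums were 847 to 1055 CPM at day 3, 568 to 830 CPM at day 4 and 288 to 316 CPM at day 5, against 1742 to 2127 CPM in crypts. Mki67, a gene of cycling cells, fell by 3.50 ± 0.18 at day 5 against day 3 (edgeR adjusted p = 6.24e-10) and Top2a, the topoisomerase of dividing cells, by 3.79 ± 0.15 (edgeR adjusted p = 2.49e-11). Lgr5, Sox9 and Axin2 fell too, with changes of -1.95, -0.99 and -0.56 (edgeR adjusted p = 0.00681, 0.000247 and 0.00829). Some genes of this list did not follow them. Smoc2, at 0.267 ± 0.584 CPM over monolayers, rose by 4.48 at day 5 against day 3 (edgeR adjusted p = 0.00954). It had no read in 5 of the 9 monolayer libraries, so this call rests on few reads. Its crypt level of 22.1 CPM carried it through the filter. Kit, Reg4 and Ascl2 were not called at day 5 against day 3 (edgeR adjusted p = 0.901, 0.992 and 0.294). These 3 genes averaged 0.147, 0.348 and 0.504 CPM over monolayers, a level at which a fall could hardly be seen. The part of these cell states in the Aqp4 and Aqp8 values was not tested.

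**Figure D3:**
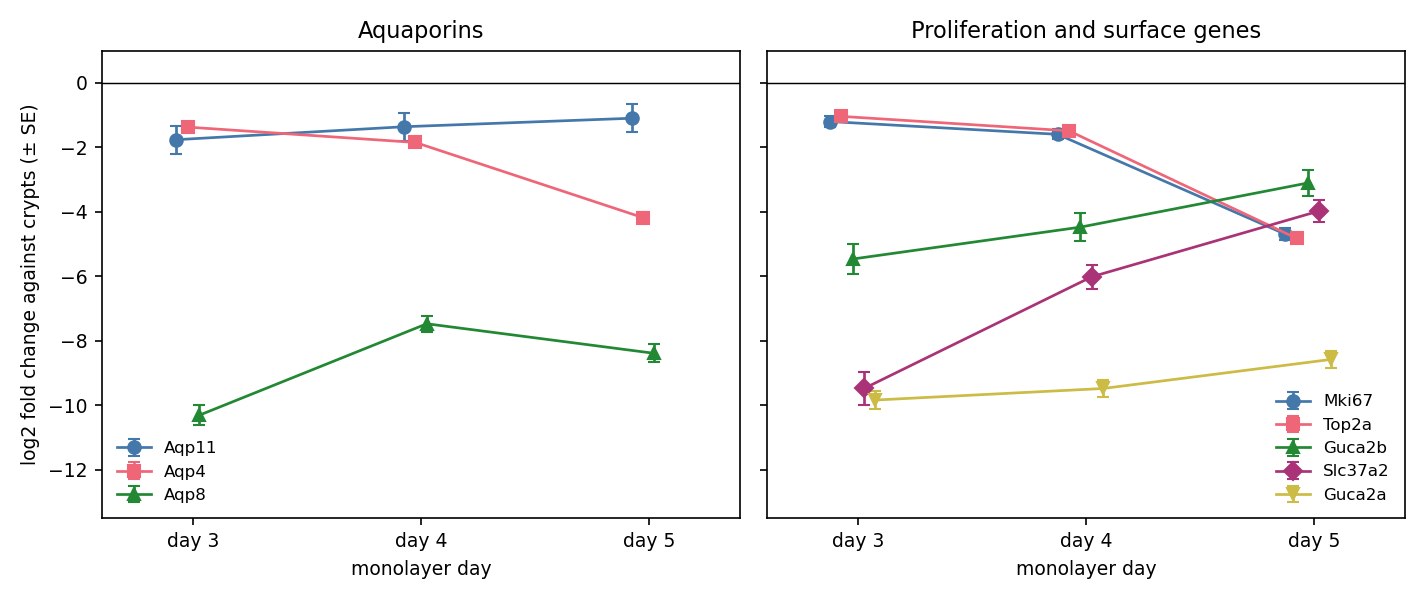
Log2 fold change against crypts (edgeR, vertical axis, bars are SE) at day 3, day 4 and day 5, for Aqp11, Aqp4 and Aqp8 on the left and for Mki67, Top2a, Guca2b, Slc37a2 and Guca2a on the right. Aqp4 lies at -1.37, -1.85 and -4.18 and, like Mki67 and Top2a, is lowest at day 5, while Aqp8 is lowest at day 3 at -10.32. All points share the same 3 crypt libraries.

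The genes whose pattern was most like that of a member were found by Pearson's r of log2 CPM among 11607 genes with a mean of at least 1 CPM. These are descriptions: the 12 libraries fall into monolayers and crypts, so any gene with a large difference between them has a high r, and the 9 monolayer libraries share 3 days. For Aqp4 over 12 libraries they were Smc2, a condensin subunit gene (r = 0.992), Clspn, a checkpoint gene of DNA replication (r = 0.990), and the acyl-CoA synthetase gene Acsm3 (r = 0.990). Over the 9 monolayer libraries they were the keratin gene Krt4 (r = 0.995), Top2a (r = 0.992) and Serbp1, an RNA-binding protein gene (r = 0.992). Smc2 averaged 34.8 ± 2.67 CPM at day 3, 25.3 ± 6.85 CPM at day 4 and 7.02 ± 1.89 CPM at day 5, against 75.0 ± 5.70 CPM in crypts, the same order of groups as Aqp4. Krt4 had no read in crypts and averaged 277 ± 35.0, 147 ± 37.2 and 14.6 ± 6.10 CPM at day 3, day 4 and day 5. Krt4 was therefore like Aqp4 among the monolayer days and unlike it against crypts.

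For Aqp8 the nearest genes over 12 libraries were the elastase gene Cela1 (r = 0.994), the kinase gene Stk10 (r = 0.993) and Ndufv2, of respiratory complex I (r = 0.991), and 339 genes had an r above 0.95. For Aqp1 they were the matricellular protein gene Nov (r = 0.999), the urea cycle gene Otc (r = 0.998) and the defensin gene Defb37 (r = 0.998), none of which had a read in monolayers. Aqp4 had 66 genes above 0.95 over 12 libraries and Aqp1 had 544. Aqp11 had 1, Mms22l, a DNA repair gene (r = 0.9503), followed by Fastkd1, of mitochondrial RNA (r = 0.937), and Tmem82 (r = 0.927). Over the 9 monolayer libraries the nearest to Aqp11 were Dgcr14 (r = 0.965), Aup1 (r = 0.932) and Atxn2l (r = 0.928).

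The salt transport genes that water follows were mostly lower in monolayers. Of 24 epithelial ion transport genes tested 20 were lower and 1 higher in monolayers against crypts, with a median of -1.92 beside a median of -0.03 over all genes, of which 32.8% were called lower and 30.7% higher. The sodium-coupled butyrate transporter gene Slc5a8 averaged 3.22 ± 3.33 CPM in monolayers and 272 ± 14.1 CPM in crypts (-7.04 ± 0.13, edgeR adjusted p = 6.99e-18). Kcne3, a potassium channel subunit gene of chloride secretion, averaged 1.73 ± 1.496 CPM in monolayers and 178.6 ± 54.7 CPM in crypts (-6.99 ± 0.29, edgeR adjusted p = 2.63e-13). At day 5 against day 3, 10 of these 24 were higher and 2 lower, beside 9.9% of all genes called higher and 10.5% lower. Aqp8 was thus not alone among transport genes in its fall, and whether it fell by more than they did was not tested.

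Genes that answer osmotic stress and cell swelling went mostly the other way, with 10 of 15 higher and 3 lower in monolayers against crypts (median 0.70), beside 30.7% of all genes called higher and 32.8% lower. Nfat5, the transcription factor of the hypertonic response, averaged 441 ± 25.2 CPM in monolayers and 149.96 ± 16.7 CPM in crypts (1.56 ± 0.08, edgeR adjusted p = 3.67e-12). The volume-regulated anion channel subunit genes Lrrc8c and Lrrc8b were higher by 2.57 ± 0.34 and 1.73 ± 0.25 (edgeR adjusted p = 2.66e-06 and 8.41e-06), and the aldosterone-induced kinase gene Sgk1 was lower at -2.02 ± 0.15 (edgeR adjusted p = 1.64e-09). Regulators and anchors of aquaporins, a list of 12 tested genes, had 7 higher and 4 lower (median 0.54), where 30.7% of all genes were called higher and 32.8% lower. Dmd, which encodes dystrophin, averaged 5.71 ± 2.26 CPM in monolayers and 22.7 ± 4.26 CPM in crypts (-2.09 ± 0.23, edgeR adjusted p = 2.39e-07). Vipr1, a receptor for the secretory peptide VIP, was lower at -2.69 ± 0.08 (edgeR adjusted p = 3.74e-15), and Nr3c2, the aldosterone receptor, at -1.73 ± 0.11 (edgeR adjusted p = 1.91e-10).

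The other substrates of aquaporins were followed through 2 more lists. Glycerol and triglyceride genes had 6 of 17 higher and 8 lower (median 0.05), near the shares of 30.7% higher and 32.8% lower over all genes. Lpin1, which makes diacylglycerol, averaged 197 ± 27.9 CPM in monolayers and 15.9 ± 4.49 CPM in crypts (3.63 ± 0.13, edgeR adjusted p = 4.63e-14), while Gpd1, which makes glycerol 3-phosphate, averaged 1.43 ± 0.688 CPM in monolayers and 22.9 ± 5.00 CPM in crypts (-4.02 ± 0.34, edgeR adjusted p = 5.95e-09). Hydrogen peroxide genes had 9 of 20 higher and 10 lower (median -0.23), beside the same shares over all genes. Among the peroxide sources, Nox1, the colonic NADPH oxidase gene, averaged 0.280 ± 0.324 CPM in monolayers and 19.3 ± 4.77 CPM in crypts. Crypts alone carried Nox1 through the filter, as they did Aqp1, so its adjusted p is not given. Duox2, the dual oxidase of the surface, averaged 17.3 ± 10.2 CPM in monolayers and 104.8 ± 17.1 CPM in crypts (-2.74 ± 0.21, edgeR adjusted p = 1.94e-09), and it rose at day 5 against day 3 (1.57, edgeR adjusted p = 0.00111).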

How the data were processed

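The deposited values are counts of reads per gene, 1 file per library, which the authors left without normalization; each file held 23420 gene symbols and 5 summary lines, which hold 56.5 to 68.3% of the reads and were left out of all sums and tests. RNA was taken up with an RNAqueous Micro kit, per the labels' protocols. The tools are CASAVA 1.9, TopHat2 and HTSeq per the submitters' processing notes, which list the builds mm9 and mm10 and give neither a role. The annotation and strand setting were not given in the sources used here. Reads of overlapping or antisense genes thus cannot be told apart; in GENCODE M21 no other gene lies on the exons of the members. Only RefSeq promoter coordinates (GRCm38.p6) are printed.

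Samples were grouped by the labels. All 12 libraries entered 1 fit in R 4.3.3 with edgeR 4.0.16 (filterByExpr with a minimum count of 10, 12863 genes kept, TMM factors of 0.91 to 1.12, quasi-likelihood test), with contrasts of the mean monolayer, of each day and of pairs of days, and Benjamini-Hochberg adjustment over all genes. The fit takes 1 spread per gene from all groups, so tests between days also carry that of crypts. SE was taken from the fold change and its F statistic. Where a group had at most 3 reads the pooled CPM of both groups is set as a ratio, with its exact 95% interval. Where it had 0, a bound against 3 reads over the group is given. For Aqp8 and Aqp4, which had more reads, the pooled ratio is given beside the fitted change, with the interval for Aqp8 only. The test was tried on simulated data. DESeq2 1.42.0 and other scalings, filters and samples served as alternatives. Pearson's r used a prior count of 2, and r among monolayers was taken for members with at least 300 counts there. The members and the 17 gene lists were chosen with earlier results of these data known. The text names all members, up to 4 called genes per list (at least 1 CPM on average, largest changes), the 3 genes most like each member, and genes that check the samples; of those a list's rule selects, not all are printed. The genes next to Aqp3, and the members of marker lists singled out for having no read or set beside Aqp4 and Aqp8 between days, were named after their values were seen. Libraries of 1 group differed by more than sampling noise (chi-square of 5.58 to 27.7 per degree of freedom), so all were used.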

Additional observations from a re-analysis of the deposited data

Results flagged for a closer look

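Differences between the monolayer days were looked for in each member. Aqp8 differed between day 4 and day 3, by 2.84 on the log2 scale (edgeR adjusted p = 0.00903), with all 3 day 4 libraries higher. That call rests on 38 reads at day 4 and 6 at day 3. Aqp4 differed between day 5 and day 3 (-2.81, edgeR adjusted p = 4.3e-09) and between day 5 and day 4 (-2.34, edgeR adjusted p = 1.42e-07), with all 3 day 5 libraries lower. Groups of 3 libraries are too small for a check of single outlying libraries.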

How the results depend on the processing

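In monolayers against crypts Aqp4, Aqp8 and Aqp11 stayed called under every alternative run (Aqp1 too, but it enters the test through crypts alone, which says nothing of stability). Leaving out 1 library moved Aqp8 between -8.98 and -8.51, Aqp4 between -2.56 and -2.26, Aqp11 between -1.56 and -1.20 and the difference in the log2 ratio of Aqp8 to Aqp4 between -6.76 and -6.03. Of the members tested 1 was called at day 4 against day 3, but 2 by DESeq2, with no filter and with the replicate block, and 0 to 2 when 1 library was left out. At day 5 against day 3 it was 1, but 2 by DESeq2 and with no filter, and 1 to 2 when 1 library was left out. The reversals were in changes that were not called: Aqp1 at day 4 against day 3, where each day holds 1 read, was 0.19 and turned to -0.13, -0.29 and -1.58 without day 3 replicate 1, day 3 replicate 2 and day 4 replicate 1 (up to 1.76 without another library), and Aqp11 at day 5 against day 4 turned to -0.11 without day 5 replicate 1 (up to 0.60 without another). The cause of these changes was not tested.

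Same-numbered libraries did not deviate together over all genes (r of -0.0336 to 0.0585 over 18 pairs). With 3 libraries a group this cannot exclude a shared mouse, culture or batch, and the labels do not say whether a number marks one. With the replicate block Aqp11 at day 5 against crypts was not called (-1.07, edgeR adjusted p = 0.0674) and Aqp4 at day 4 against day 3 was (-0.50, edgeR adjusted p = 0.0318); no other call of a member changed. Over all genes 356 were called at day 4 against day 3, against 603 by DESeq2, 636 with no filter and 1144 with only the libraries of both days. Library totals in place of TMM moved the median change of all genes in monolayers against crypts by -0.18 and the share of calls that were higher to 37.7%, against 48.3%; the directions of the members' calls did not change. Depth limits Aqp8 and Aqp1 in monolayers and Aqp5 and Aqp7 throughout. For Aqp3 depth and the counting cannot be told apart.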
